A study of Rattus norvegicus with 12 samples.

Results

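Gene expression in the renal cortex of rats given cisplatin by intravenous injection was compared with that of rats injected with water, on 6 of the 12 arrays of the study, 3 in each group. The animals were male Sprague-Dawley rats, bought at 5 weeks of age and given water or cisplatin for 4 weeks. The labels give 0.75 mg/kg/day for each intravenous cisplatin sample, whereas the general treatment text, the same for the whole series, gives 3.75 mg/kg/day. The other 6 arrays, from rats given water or cisplatin at 3.75 mg/kg/day by gavage, entered the same fit and served as a separate set of animals. Each array held total RNA of 1 sample, labelled with Cy3 (a green dye) as cRNA. Samples were chosen by the labels alone, and no measured value decided which array belonged to which group. The series describes the 3 samples of a group as biological replicates.

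Cisplatin is a platinum drug that crosslinks DNA. It is taken up by proximal tubule cells, mainly through the organic cation transporter Slc22a2, and injures them, the straight S3 segment most of all. Crosslinks stabilise p53, a transcription factor whose targets stop the cell cycle, repair DNA or start apoptosis. Injured tubule cells lose transporters and metabolic enzymes, express injury markers such as Havcr1 (kidney injury molecule 1), and may divide again, while fibroblasts and leukocytes can gather around them.

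The arrays differed in brightness with treatment. At their 75th percentile, the water arrays read 1008 to 1055 intensity units and the cisplatin arrays 1387 to 1407, and 66.1% to 72.1% of probes were well above background on the 6. Levels are given as log2 intensity minus the 75th percentile of the array, so that 0 is that percentile, and each change is relative to it. Scaling by 8 spike-in probes moved the median change over all features from -0.07 to 0.49. All 3 cisplatin arrays lay on a slide of their own and the water arrays on another, so that slide and treatment cannot be told apart. Cortex markers were present: all 26 measured markers of the first and second proximal tubule segments, all 14 of the third and all 13 of intercalated cells were well above background on the 3 water arrays, as were 26, 12 and 13 on the 3 cisplatin arrays. In bulk tissue, fewer cells of a type and less RNA per cell cannot be told apart.

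Cisplatin replicates 1 and 2 each stood apart in their own way. Replicate 1 lay farthest from the water arrays on the first principal component, at 122.4 against 89.4 and 70.3 for replicates 2 and 3 and -95.9 to -92.0 for water. It also lay opposite the other two on the second component, at -57.5 against 39.3 and 31.9. These components held 77.9% and 8.5% of the variance of the 6 arrays. Changes of replicates 2 and 3 correlated at r = 0.902 across features and those of replicate 1 with them at 0.873 and 0.868; all 3 share the water mean, and features are not independent.

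Replicate 2 was singular in another way: transcripts known from haploid male germ cells were high on it. Tnp1 (transition protein 1, which replaces histones in spermatids) lay at -6.86, -2.30 and -0.51 on water replicates 1 to 3 and at -8.03, 3.10 and -6.92 on cisplatin replicates 1 to 3. It was high on cisplatin replicate 2, intermediate on water replicates 2 and 3 and lowest on the remaining arrays. Of 18 such genes, a list drawn up after their values were seen, 16 were higher on cisplatin replicate 2 than on any of the other 11 arrays. Their mean level was -0.92 there, -5.51, -4.45 and -3.29 on the water arrays, -5.62 and -5.50 on cisplatin replicates 1 and 3, and -5.68 to -5.31 on the gavage arrays. All 18 were well above background on cisplatin replicate 2, against 10, 13 and 14 on the water arrays and 11 and 8 on cisplatin replicates 1 and 3. Some, such as Prm2 and Acr, were so on every array of the study. The groups overlapped for most of these genes. Of the 13 that were tested 2 were called, Tcp11 at 1.65 ± 0.40 and Zpbp at -1.86 ± 0.31 (SE), and for these the groups did not overlap. What raised the mean level of these transcripts on cisplatin replicate 2 and water replicates 2 and 3 was not tested.

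**Figure D1:**
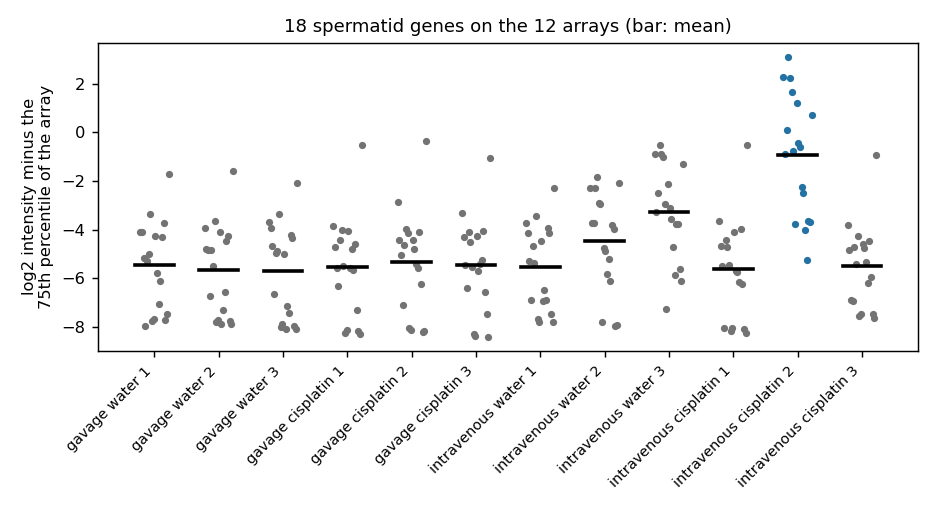
Levels of 18 spermatid genes (log2 intensity relative to the 75th percentile of each array) on the 12 arrays, 1 point per gene, with the mean of each array. Cisplatin replicate 2 of the intravenous group stands highest, with a mean of -0.92, followed by intravenous water replicates 3 and 2 at -3.29 and -4.45.

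Intravenous cisplatin changed more of the measured transcripts than it left uncalled. Of 32215 features tested (12610 named genes and otherwise unnamed probes), 8408 were higher and 10501 lower than with water at an adjusted p under 0.05 (limma, Benjamini-Hochberg over all features), which is 26.1% and 32.6%, or 58.7% in all. With spike-in scaling the same test gave 17036 higher and 3020 lower, so that the split between directions belongs to the scaling. Changes of 2-fold or more numbered 3424 rises and 3781 falls, changes of 4-fold or more 1157 and 849, and changes of 16-fold or more 152 and 66. Named genes gave 3755 rises and 3998 falls. In 66.2% of features with values on all 6 arrays (29.4% upward, 36.8% downward) no cisplatin array fell within the range of water.

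The stronger response of replicate 1 was measured on features chosen without it. For each cisplatin array, features were taken that were called and changed at least 2-fold in the fit without that array, and its change was divided by the mean change of the other two. A feature chosen for a large change on other arrays tends to change less on the array held out, so that a median ratio below 1 is usual. Over 6439 features, replicate 1 changed 1.12 times as much as the other two (interquartile range 0.885 to 1.37). Replicate 2 gave 0.944 (0.797 to 1.09, 6749 features) and replicate 3 gave 0.803 (0.663 to 0.931, 7340 features). Replicate 1 therefore responded most and replicate 3 least, though the middle ranges of the 3 overlapped. The excess was larger among falls, with a median of 1.16 against 1.08 among rises, and larger still among falls of 4-fold or more, at 1.23.

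A choice of features that used none of the intravenous arrays gave the same order. On 8061 features called and changed at least 2-fold in the gavage experiment, the ratios were 1.29 for replicate 1, 0.954 for replicate 2 and 0.781 for replicate 3. For replicate 1 the median was 1.20 among features that rose with gavage and 1.38 among those that fell. Against the gavage change itself, the 3 intravenous animals reached 0.917, 0.736 and 0.634 of it at the median. The gavage rats had other water controls, another dose and another route.

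**Figure D2:**
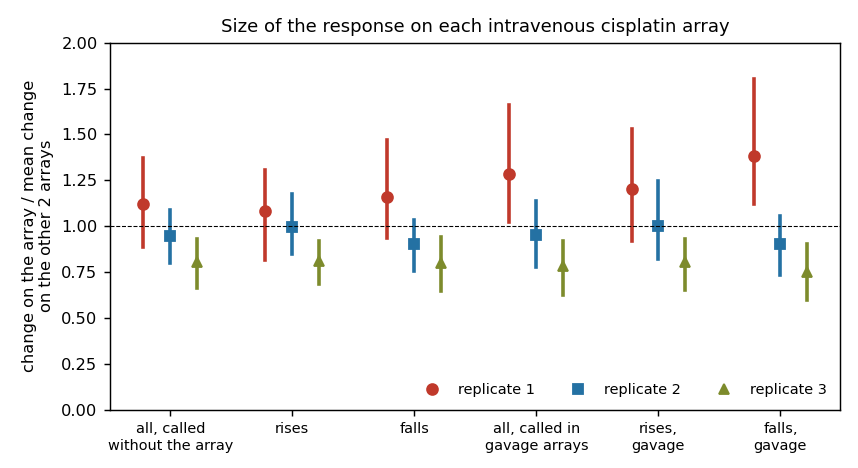
Change of each intravenous cisplatin array divided by the mean change of the other two, over features chosen without that array; points are medians and bars interquartile ranges, for all such features, rises and falls apart, and features chosen in the gavage experiment. Replicate 1 has medians of 1.08 for rises and 1.16 for falls, replicate 2 of 0.995 and 0.903, and replicate 3 of 0.808 and 0.797.

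Replicate 1 carried a modest share of the calls and a large share of the biggest falls. Without it, 7446 features were higher (23.1%) and 9978 lower (31.0%), or 54.1% in all, and 16585 of the 18909 calls were kept (87.7%), all in the same direction, beside 839 new ones. Leaving out replicate 2 kept 88.6% and leaving out replicate 3 kept 91.2%. Features higher and lower numbered 7747 and 9572 without replicate 2 and 8287 and 9639 without replicate 3. Leaving out a water array gave 7444 to 7538 higher and 9194 to 9712 lower, so that replicate 1 was not the array on which the number of calls depended most. The sizes depended on replicate 1 more. The 7205 changes of 2-fold or more became 6570, and 6161 were shared. Falls of 4-fold or more went from 849 to 561 without replicate 1, but to 952 and 1023 without replicates 2 and 3. The corresponding rises went from 1157 to 1114 without replicate 1, and to 1105 and 1342 without the others. At the median, called rises of 2-fold or more kept 0.953 of their size without replicate 1, and called falls of 2-fold or more 0.928.

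Among called features, replicate 1 was the most changed of the 3 arrays in 55.2%, replicate 2 in 30.3% and replicate 3 in 14.5%. Of the summed change of the 3 arrays its median share was 36.8%, against 32.9% and 29.8%. It led in 66.1% of falls of 2-fold or more and in 55.8% of such rises. Among the 7753 named genes called, leaving out replicate 1 ended 879 calls and moved 213 (2.75%) by more than 1.5-fold. Leaving out replicate 2 ended 822 and moved 42 (0.542%), and leaving out replicate 3 ended 624 and moved 79 (1.02%).

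**Figure D3:**
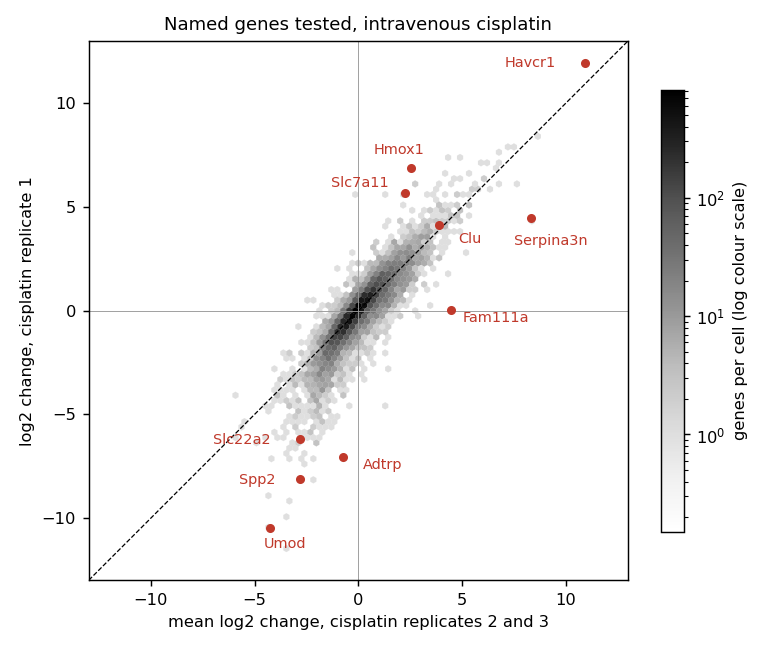
Log2 change from the water mean of cisplatin replicate 1 (vertical) against the mean change of replicates 2 and 3 (horizontal), over the named genes tested. Shading counts genes per cell on a log colour scale, labelled points are single genes and the dashed line is equal change: most genes follow it, while tubule genes such as Umod (-10.46 on replicate 1) lie below it and Hmox1 (6.88) above it.

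The median rise of injury markers was much the same in all 3 animals, though single markers differed. Of 32 measured, 25 were higher and 3 lower (against 26.1% and 32.6% of all features), with a median of 2.25 against -0.07 over all features. The median was 2.42, 2.38 and 2.26 on replicates 1 to 3, and the counts were again 25 and 3 without replicate 1. Replicate 1 was the most changed array for 15 of the 28 called, replicate 2 for 7 and replicate 3 for 6. Leaving out replicates 1 to 3 in turn moved 3, 2 and 3 of the 28 by more than 1.5-fold. Havcr1, a membrane protein by which injured tubule cells take up dead ones, lay at -4.74, -4.83 and -5.46 on the water arrays and at 6.94, 6.17 and 5.70 on the cisplatin arrays. The groups lay far apart, with replicate 1 highest, and Havcr1 was well above background on 2 of the 3 water arrays. Its change was 11.28 ± 0.36 (SE, n = 3 against 3), the largest rise of a named gene measured in both groups, and 10.94 without replicate 1. Spp1 (osteopontin, a secreted adhesion protein) lay at 2.84, 2.50 and 3.02 with water and 7.55, 7.64 and 7.85 with cisplatin, where replicate 1 was lowest. It rose by 4.89 ± 0.19, and by 4.96 without replicate 1.

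Further injury transcripts rose. Clu (clusterin, a secreted chaperone) rose by 3.995 ± 0.12, Timp1 (a metalloprotease inhibitor) by 4.07 ± 0.18, and Lcn2 (neutrophil gelatinase-associated lipocalin) by 5.80 ± 0.61, with the widest error of these. Tnfrsf12a, the receptor of the cytokine TWEAK, rose by 4.45 ± 0.10. The fibrinogen beta chain Fgb rose by 5.28 ± 0.17 with changes of 5.24, 5.33 and 5.26 on the 3 arrays, which shows how small the gap to replicate 1 could be. Krt20, a keratin of injured epithelium, was not well above background on any water array and was at least 16.3-fold higher. The 3 that fell were Tff3, a secreted mucosal peptide, at -3.50 (-2.30 without replicate 1, and -4.11 and -4.09 without replicates 2 and 3) and the tubule proteins Gsta1 at -1.36 and Fabp1 at -1.25, whose call ended with spike-in scaling.

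Hmox1 (haem oxygenase 1, which breaks down haem) was a marker that rose unequally in the 3 animals. It lay at -1.72, -1.58 and -1.46 with water and at 5.30, 1.18 and 0.78 with cisplatin. All 3 cisplatin arrays were above all water arrays, but replicate 1 lay far above the other two. The change of 4.002 ± 1.01 (adjusted p = 0.00654) became 2.56 without replicate 1 (adjusted p = 0.00297), and 4.62 and 4.82 without replicates 2 and 3. Slc7a11, the cystine importer that feeds glutathione synthesis, changed by 5.67, 2.75 and 1.80 on the 3 arrays, or 3.41 ± 0.86, by 2.28 without replicate 1 and by 4.21 without replicate 3. Slc7a11 was well above background on 1 water array, and its call ended when its probes were averaged, at 1.71. Both are among the 8 genes with the largest upward gap of replicate 1 over the other two.

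Most antioxidant genes did not share the rise of Hmox1. Of 29 genes of the Nrf2 response, 12 were higher and 14 lower (against 26.1% and 32.6% of all features), with a median of -0.04. Srxn1 (sulfiredoxin) rose by 3.38 ± 0.32 (2.60 as the mean of its probes) and Nqo1, a quinone reductase, by 2.09. Both subunits of the enzyme that makes the glutathione precursor fell. Gclm, its modifier subunit, lay at -1.51, -1.86 and -2.28 with water and at -5.25, -5.37 and -5.11 with cisplatin, with the 3 animals close together. It fell by 3.36 ± 0.45, and the catalytic subunit Gclc changed by -2.25. Genes of metal and platinum handling, which include exporters and drug-processing enzymes, leaned downward. Of 21 measured, 11 were lower and 4 higher (against 32.6% and 26.1% of all features). Their median of -0.37 became 0.19 with spike-in scaling. The copper importer Slc31a1, which can also carry platinum, changed by -2.64 ± 0.31, while the efflux pump Abcc2, on the same list, rose by 3.09. Among 13 efflux pumps 8 rose and 3 fell (2 without replicate 1), with Abcg2, a urate and drug exporter, at -1.48. Abcb1b (P-glycoprotein) rose by 7.43 ± 0.23 with changes of 7.80, 7.07 and 7.43, or 8.05 as the mean of its probes.

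Targets of p53 rose on all 3 arrays, somewhat more on replicate 1. Of 30 measured, 21 were higher and 2 lower, with medians of 1.23, 1.06 and 0.99 on replicates 1 to 3 and the same counts without replicate 1. Replicate 1 was the most changed array for 18 of the 23 called, against 55.2% of all called features. Leaving it out moved 0 of the 23 by more than 1.5-fold. Mdm2, the ligase that degrades p53, lay at 1.01, 1.01 and 0.94 with water and at 3.91, 3.61 and 3.81 with cisplatin. The groups did not overlap and the 3 animals differed little, for a rise of 2.79 ± 0.13. Ccng1 (cyclin G1) rose by 3.02 ± 0.13 and Phlda3, which holds back Akt, by 5.28 ± 0.15. The proapoptotic targets rose too, the death receptor Fas by 4.16 ± 0.13 (3.27 as the mean of its probes) and Bbc3 (PUMA) by 3.39 ± 0.14. Cdkn1a (p21) was counted among the lower ones, at -0.59 ± 0.08, but its probes disagreed. The brightest probe, which stood for the gene, fell while the other two rose by 5.87 ± 0.14 and 5.49 ± 0.17, so that no direction is given for Cdkn1a. Of 26 apoptosis and necroptosis genes 16 rose and 4 fell, with the necroptosis kinase Ripk3 at 2.30 ± 0.15.

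Immediate early genes, transcription factors induced within minutes of a stimulus, were higher after these weeks of treatment. Of 21 measured, 14 were higher and 2 lower with a median of 1.18 (1.11 without replicate 1). Fosl1, a partner of Jun, was not well above background with water and was at least 137-fold higher (adjusted p = 9.64e-08). Egr1 rose by 3.53 ± 0.18 and Fos by 3.22 ± 0.20. Il24, a cytokine of the IL-10 family, lay at -4.61, -4.74 and -5.15 with water and at 3.10, 2.96 and 2.20 with cisplatin, and was well above background on 2 water arrays. Its arrays did not overlap, and it rose by 7.58 ± 0.31.

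Tubule transport and metabolism fell, and there replicate 1 led. Of 26 markers of the first and second proximal segments, 21 were lower and 1 higher, with a median of -1.66. The median was -2.47 on replicate 1, -1.47 on replicate 2 and -1.21 on replicate 3, and replicate 1 was the most changed array for 21 of the 22 called. Without it, 18 were lower and the median was -1.35. Of 14 markers of the S3 segment, 12 fell and 1 rose, with medians of -2.74, -1.77 and -1.10 on the 3 arrays. A list of further solute and drug carriers had 17 of 22 lower and 1 higher, and 14 lower without replicate 1.

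Slc22a2, the cation transporter that brings cisplatin into proximal cells, lay at 5.96, 5.63 and 5.58 with water and at -0.45, 2.72 and 3.10 with cisplatin. Every cisplatin array was lower than every water array, and replicate 1 was far below the other two. The change was -3.93 ± 0.84 (adjusted p = 0.00263) and became -2.81 without replicate 1 (adjusted p = 0.00216) and -4.59 without replicate 3. Slc34a1, the main renal phosphate cotransporter, lay at 8.20, 8.45 and 8.40 with water and at 3.65, 6.43 and 6.58 with cisplatin. Its change of -2.80 ± 0.83 (adjusted p = 0.015) became -1.85 without replicate 1 (adjusted p = 0.0448), close to the threshold. Slc7a13, an aspartate and glutamate carrier of the S3 segment, lay at 7.87, 7.64 and 7.38 with water and at 0.67, 4.89 and 5.26 with cisplatin. Its change of -4.02 ± 1.03 became -2.55 without replicate 1, and -4.67 and -4.85 without replicates 2 and 3.

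Some calls in the proximal tubule ended without replicate 1, 3 of 22 in the S1 and S2 list and 2 of 13 in the S3 list. Among all named genes 879 of 7753 calls ended, so that these losses are close to the general share. The sizes moved more often. Leaving out replicate 1 moved 7 of the 22 (31.8%) and 4 of the 13 (30.8%) by more than 1.5-fold, against 2.75% of all named genes called. Without replicates 2 and 3 these shares were 4.55% and 4.55% in the S1 and S2 list, and 23.1% and 38.5% in the S3 list. In the S1 and S2 list the calls that ended were those of Slc22a6 (the organic anion transporter OAT1), Slc34a3 (a phosphate cotransporter) and Aqp1 (the water channel of the proximal tubule). Slc22a6 changed by -4.41, -1.92 and -1.64 on replicates 1 to 3, or -2.65 ± 0.82 (adjusted p = 0.0182), and by -1.78 without replicate 1 (adjusted p = 0.0621). In the S3 list the calls of Slc22a7 (the anion transporter OAT2) and Acsm3 (a medium-chain acyl-CoA synthetase) ended, and that of Acsm3 ended without replicate 2 as well (-1.63, adjusted p = 0.0895, limma). Slc22a7 lay just past the threshold without replicate 1, at an adjusted p of 0.0501 (limma). Mep1b, a brush-border metalloprotease, changed by -7.13, -2.40 and -2.05, and its change of -3.86 ± 1.47 (adjusted p = 0.0433) became -2.22 (adjusted p = 0.155). These 6 genes were picked out because their calls ended, and on replicates 2 and 3 alone they were still below water. Slc34a3 changed by -1.41, Aqp1 by -0.88, Slc22a7 by -2.11 and Acsm3 by -1.56 there. With spike-in scaling the calls of Slc34a3, Aqp1, Acsm3 and Mep1b ended too. Leaving out replicate 3 instead made the changes of Slc22a7 (-4.13), Acsm3 (-2.58) and Mep1b (-4.76) larger, and leaving out replicate 2 those of Slc34a3 (-3.17) and Mep1b (-4.59).

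Other falls did not need replicate 1. Slc6a19, the neutral amino acid carrier of the brush border, changed by -2.51 ± 0.30, and by -2.12 without replicate 1. Slc7a12, an amino acid carrier in the S3 list, lay at 2.40, 1.74 and 1.23 with water and at -2.15, -1.19 and -1.26 with cisplatin, or -3.32 ± 0.35 and -3.02 without replicate 1. The sodium-proton exchanger Slc9a3 changed by -2.25 ± 0.29. In each list 1 gene went the other way: the basolateral glucose carrier Slc2a2 rose by 1.04 ± 0.13 and the phosphate cotransporter Slc34a2 by 3.69 ± 0.25.

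The enzymes of the proximal tubule followed its transporters. Of 16 genes of gluconeogenesis and sugar metabolism, by which the cortex makes glucose, 14 fell and 1 rose, with medians of -2.78, -1.84 and -1.31 on the 3 arrays. Leaving out replicate 1 moved 6 of the 15 called (40%) by more than 1.5-fold. Pck1, which commits oxaloacetate to glucose, lay at 7.44, 7.45 and 7.44 with water and at 1.81, 5.61 and 6.09 with cisplatin. The water arrays hardly differed, and replicate 1 lay well below the other cisplatin arrays; its change of -2.94 ± 0.96 became -1.59 without replicate 1 (adjusted p = 0.0313) and -3.73 without replicate 3. Slc37a4, which carries glucose 6-phosphate into the endoplasmic reticulum, changed by -2.21 ± 0.11, and by -2.15 without replicate 1. The call of Fbp1 (fructose bisphosphatase) ended without it, from -1.82 to -1.14 (adjusted p = 0.0513, limma), and both calls ended with spike-in scaling.

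Amino acid metabolism had 26 of 29 genes lower and 0 higher (23 lower without replicate 1), fatty acid oxidation 28 of 30 lower (27), and oxidative phosphorylation 27 of 28 lower (26). Their medians were -1.70, -1.11 and -0.86. The lead of replicate 1 was smallest in the respiratory chain, with medians of -0.98, -0.78 and -0.80 on the 3 arrays, against -1.58, -1.04 and -0.87 for fatty acid oxidation. Hadh, a dehydrogenase of beta oxidation, changed by -1.95 ± 0.12, and Sdhc, a subunit of complex II, by -1.18 ± 0.09. Transcription factors that set tubule identity fell in 14 of 17 cases and rose in 2, with Hnf4a at -1.83 ± 0.30 (-2.5, -1.9 and -1.1 on the 3 arrays).

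The thick ascending limb and distal tubule lost their markers as well, with 16 of 19 lower, 0 higher and a median of -2.03. Without replicate 1 the 16 lower were joined by 1 higher. Umod (uromodulin, the main protein of normal urine) lay at 8.97, 8.73 and 8.95 with water and at -1.57, 4.36 and 4.87 with cisplatin. The groups did not overlap, but replicate 1 lay far below the other two. The change was -6.33 ± 1.39 (adjusted p = 0.00314), and -4.27 without replicate 1 (adjusted p = 0.000403), a smaller size with a smaller p, since replicates 2 and 3 were close. It was -7.23 and -7.49 without replicates 2 and 3. Its second probe gave -6.37 ± 1.39. Egf, the growth factor of the distal tubule, lay at 5.35, 5.25 and 5.35 with water and at -1.17, 0.34 and 0.56 with cisplatin, a change of -5.41 ± 0.38, or -4.87 without replicate 1. The thiazide-sensitive cotransporter Slc12a3 did not follow replicate 1: its changes were -2.10, -2.79 and -2.42, or -2.44 ± 0.24.

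Collecting duct and glomerulus changed less. Of 12 principal cell markers 6 fell and 2 rose, among them the water channel Aqp4 at 2.33 ± 0.34. That is the probe that stood for Aqp4, and its probes disagreed. Another one, well above background on all water and cisplatin arrays, changed by only 0.14 ± 0.26, while the rest gave 1.76 to 3.41. Of 13 intercalated cell markers 10 fell, with a median of -0.45 that became 0.11 with spike-in scaling. Of 15 podocyte markers 5 fell and 2 rose (median -0.28, or 0.28 with spike-in scaling), and of 13 endothelial markers 4 fell and 3 rose (median -0.18, or 0.38). For podocyte and endothelial markers these counts are close to the 32.6% lower and 26.1% higher among all features or below them, and say nothing particular about those cells. The endothelial VEGF receptor Kdr changed by -0.92 ± 0.10. Replicate 1 was the most changed array for 6 of 8 principal cell markers called, 6 of 10 intercalated, 4 of 7 podocyte and 4 of 7 endothelial ones. The medians on the 3 arrays were -0.54, -0.51 and -0.42 for intercalated cells and -0.09, -0.30 and -0.28 for podocytes. Hormone and endocrine genes fell in 11 of 17 cases and rose in 5. The calcium-sensing receptor Casr changed by -3.69 ± 0.35. The call of angiotensinogen (Agt), from -3.00 ± 0.98 to -1.87, ended without replicate 1 and with spike-in scaling, and the change was -3.74 without replicate 3.

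**Figure D4:**
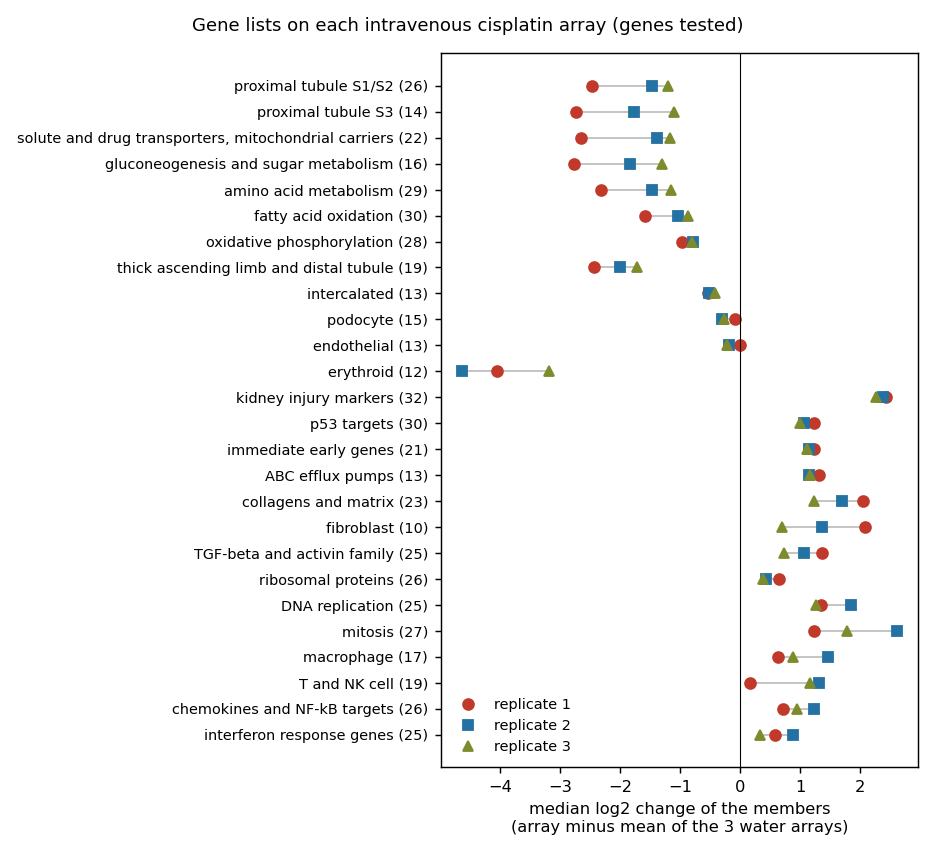
Median log2 change of gene lists on each intravenous cisplatin array, against the water mean, 1 row per list. Proximal, gluconeogenic and amino acid lists lie farthest left on replicate 1 (-2.47 for proximal S1/S2), mitosis lies farthest right on replicate 2 (2.61), and T and NK cell genes lie near 0 on replicate 1 (0.16).

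Matrix genes rose, most on replicate 1. Of 23 collagens and matrix proteins 21 rose and 0 fell, with medians of 2.04, 1.70 and 1.24 on the 3 arrays, and 19 rose without replicate 1. Col1a1, a chain of fibrillar collagen, lay at 1.20, 1.15 and 0.54 with water and at 3.84, 3.71 and 2.92 with cisplatin, where replicate 3 was lowest. It rose by 2.53 ± 0.26, and by 2.35 without replicate 1. Fibronectin (Fn1) rose by 2.56 ± 0.17 and the basement membrane collagen Col18a1 by 2.00 ± 0.10. Of 10 fibroblast markers 8 rose and 1 fell, with medians of 2.08, 1.36 and 0.70. The calls of Lum (lumican, from 1.79 to 0.98) and Thbs1 (thrombospondin 1, from 0.89 to 0.52) ended without replicate 1. Lum was 1.96 without replicate 2, where its call ended as well, and 2.43 without replicate 3. Matrix proteases and their inhibitors moved both ways, 13 higher and 8 lower of 22, with Mmp2 (gelatinase A) at 3.03 ± 0.30 and Adamts1 at 3.47 ± 0.18.

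In the TGF-beta and activin family 18 of 25 rose and 4 fell, and 16 rose without replicate 1. Among ligands, Tgfb1 rose by 1.47 ± 0.10 with changes of 1.5, 1.5 and 1.4, and Gdf15, a stress-induced member, by 4.42 ± 0.27. Fst (follistatin), which binds and blocks activins, lay at -3.38, -3.25 and -3.23 with water and at 3.59, 3.20 and 3.25 with cisplatin, with the arrays of each group close together. It rose by 6.63 ± 0.16, and by 6.51 without replicate 1. The latent TGF-beta binder Ltbp4 rose by 1.40 ± 0.09. The BMP antagonists Grem1 and Nog rose by 1.53 and 1.02, and both calls ended without replicate 1 (0.89 and 0.96, adjusted p = 0.0781 and 0.106, limma). That of Nog ended without replicate 2 as well, at 0.92.

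Genes of cell division rose, and here replicate 2 led. Mitosis is driven by cyclin-dependent kinase 1, and its genes share promoter elements that are shut in resting cells. They are an element of the letters TTTGAA and CCAAT boxes near it, bound by repressor complexes and by NF-Y. Replication genes often carry sites for E2F factors. The promoters of 3 mitotic and 2 replication genes show the 2 kinds. They are from RefSeq (GRCr8), the 250 bases before the annotated start, read 5′ to 3′ on the gene's strand. They are Kif23 (chr8:71320585-71320834, minus strand), Prc1 (chr1:143659231-143659480, plus), Cdk1 (chr20:19265043-19265292, plus), Tyms (chr9:120776084-120776333, minus) and Gins1 (chr3:160184670-160184919, plus). Capitals mark CCAAT or its reverse complement ATTGG and TTTGAA or TTCAAA in the mitotic genes, and only TTTCCCGC, GCGGGAAA, TTTGGCGC or GCGCCAAA in the replication genes.
Kif23: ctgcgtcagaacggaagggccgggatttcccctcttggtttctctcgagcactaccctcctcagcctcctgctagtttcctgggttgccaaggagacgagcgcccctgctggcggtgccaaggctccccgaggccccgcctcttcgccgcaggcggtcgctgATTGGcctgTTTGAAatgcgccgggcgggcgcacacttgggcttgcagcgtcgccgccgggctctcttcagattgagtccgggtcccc
Prc1: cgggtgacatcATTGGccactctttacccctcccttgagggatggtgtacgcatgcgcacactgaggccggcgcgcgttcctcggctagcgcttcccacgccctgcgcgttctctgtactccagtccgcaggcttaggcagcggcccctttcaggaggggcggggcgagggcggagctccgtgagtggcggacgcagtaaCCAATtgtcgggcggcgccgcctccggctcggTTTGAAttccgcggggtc
Cdk1: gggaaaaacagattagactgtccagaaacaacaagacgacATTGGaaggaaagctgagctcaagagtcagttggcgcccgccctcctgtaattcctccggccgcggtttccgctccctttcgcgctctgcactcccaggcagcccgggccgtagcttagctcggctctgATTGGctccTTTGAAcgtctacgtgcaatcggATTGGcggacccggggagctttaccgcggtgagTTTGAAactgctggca
Tyms: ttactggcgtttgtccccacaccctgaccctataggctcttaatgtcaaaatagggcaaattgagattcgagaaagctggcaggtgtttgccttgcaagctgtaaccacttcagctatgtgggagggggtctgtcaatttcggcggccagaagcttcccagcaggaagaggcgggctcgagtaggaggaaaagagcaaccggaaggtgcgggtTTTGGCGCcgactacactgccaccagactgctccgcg
Gins1: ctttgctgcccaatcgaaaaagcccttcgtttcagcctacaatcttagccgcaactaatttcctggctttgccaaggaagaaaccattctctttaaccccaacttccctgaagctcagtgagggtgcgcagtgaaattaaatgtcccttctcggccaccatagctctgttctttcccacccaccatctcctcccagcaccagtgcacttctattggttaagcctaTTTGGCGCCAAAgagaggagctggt

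The 3 mitotic and 2 replication promoters were those of the called genes with the smallest p among those that held the letters sought. Each therefore had to hold them, and they are examples only. The last capitals of Gins1 are a pair of overlapping matches on opposite strands. In the promoters of all 27457 genes of the table, searched on both strands, 34.2% held CCAAT, 16.1% TTTGAA and 5.78% both. Of the 25 mitosis genes with a promoter in the table, 20 held CCAAT (80%), 10 TTTGAA (40%) and the same 10 both. CCAAT was also in 16 of 24 replication promoters (66.7%), and TTTGAA in 2 (8.33%). One of the E2F octamers stood in 1.23% of all promoters, in 6 of 24 replication promoters (25%) and in 0 of the mitotic ones. A match describes the letters in this window and does not show that a factor is bound. Promoters with both elements were counted whatever the distance between them.

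Of 27 mitosis genes 24 rose and 0 fell, with a median of 1.88. The medians were 1.22, 2.61 and 1.78 on replicates 1 to 3, and replicate 2 was the most changed array for all 24. Kif23, a kinesin of the central spindle, lay at -2.02, -2.42 and -2.39 with water and at -0.76, 0.17 and -0.59 with cisplatin. All cisplatin arrays were above all water arrays and replicate 2 was highest. It rose by 1.89 ± 0.21, by 1.60 without replicate 2 and by 2.07 without replicate 1. Prc1, which bundles the microtubules of that spindle, rose by 2.01 ± 0.32, by 1.66 without replicate 2 and by 2.31 without replicate 1. Cdk1 lay at 1.33, 0.60 and 0.31 with water and at 2.24, 3.35 and 2.45 with cisplatin, and rose by 1.94 ± 0.32. Over the list, leaving out replicate 1 gave 24 higher with a median of 2.16, and leaving out replicate 2 gave 23 higher with a median of 1.51. The spermatid transcripts were high on the same array, and their part in the lead of replicate 2 was not tested.

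Replication genes rose with a smaller gap between animals. Of 25 measured, 21 rose and 2 fell, with medians of 1.35, 1.85 and 1.26, and replicate 2 was the most changed array for 18 of the 23 called. Tyms (thymidylate synthase) lay at -1.15, -1.10 and -0.92 with water and at 0.91, 0.96 and 0.98 with cisplatin, with no array standing out. It rose by 2.01 ± 0.12. Gins1, a subunit of the replicative helicase, changed by 1.61, 2.48 and 1.78, or 1.96 ± 0.21. The licensing factor Cdt1 was not well above background on any water array and was at least 6.61-fold higher. Without replicate 2, 20 genes rose, 1 fell and the median was 1.24. Brca1, which acts in recombination repair, rose by 2.29 ± 0.31, in a repair list where 11 of 23 rose and 1 fell (against 26.1% and 32.6% of all features).

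Leukocyte transcripts depended on the animal. Of 17 macrophage markers 9 rose and 0 fell, with medians of 0.63, 1.46 and 0.88. Replicate 2 was the most changed array for 6 of the 9, and without it 9 rose with a median of 0.65. The scavenger receptor Msr1 rose by 2.41 ± 0.26 and the mannose receptor Mrc1 by 2.64 ± 0.37. Of 26 chemokines and NF-kB targets 15 rose and 3 fell, and 11 of these 18 were most changed on replicate 2; without it 14 rose and 2 fell. Cxcl1, a neutrophil chemokine, rose by 3.96 ± 0.43 and Icam1, an adhesion molecule, by 1.87 ± 0.10 with changes of 1.8, 1.9 and 1.9. Of 6 measured neutrophil markers 0 rose and 1 fell, against 26.1% and 32.6% of all features. Of 25 interferon response genes 14 rose and 1 fell. The counts were 11 and 1 without replicate 1, and 10 and 2 without replicate 2, which was the most changed array for 10 of the 15 called.

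T and NK cell transcripts, like those of mitosis and macrophages, had their lowest median on replicate 1. Of 19 measured, 9 rose and 1 fell, with a median of 0.89; the medians were 0.16 on replicate 1, 1.31 on replicate 2 and 1.16 on replicate 3. Replicate 1 was the most changed array for 0 of the 10 called. Lck, the kinase that starts T cell receptor signalling, lay at -4.57, -4.31 and -4.09 with water and at -3.81, -3.02 and -2.86 with cisplatin. The groups did not overlap, but replicate 1 lay nearest to water. The rise was 1.09 ± 0.26, and 1.39 without replicate 1. Cd3e, part of the T cell receptor complex, changed by 0.53, 2.18 and 2.40, or 1.70 ± 0.45, and by 2.29 without replicate 1. Without replicate 1, 14 rose and 1 fell, with a median of 1.31 against 23.1% of all features higher; the calls gained were Cd3d, Cd8b, Nkg7, Prf1 and Cd27. Without replicate 2 and without replicate 3, 7 rose.

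Levels of these genes were low, with a mean over the list of -3.25 to -2.91 on the water arrays and -2.98 to -1.89 on the cisplatin arrays, though 18 of the 19 were well above background on all water arrays. The 1 gene that fell was Foxp3, the factor of regulatory T cells, at -2.06 ± 0.51 on the probe that stood for it and 0.57 ± 0.42 on its other probe; without water replicate 2 the change was -2.76. In the gavage experiment 0 of the 19 were called, against 29.5% of features called higher and 30.2% lower there (59.6% in all), and the median was 0.01. The difference between the 2 experiments was itself not called for any of the 19, against 1.19% of all features.

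**Figure D5:**
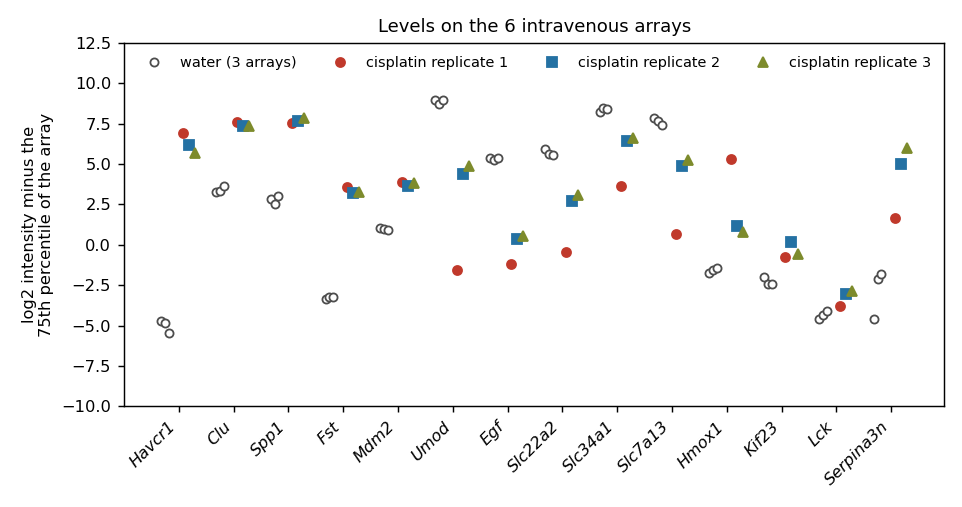
Levels of single genes on the 3 water and 3 cisplatin arrays of the intravenous experiment (log2 intensity relative to the 75th percentile of each array), open circles for water and filled symbols for cisplatin replicates 1 to 3. Havcr1 has its 3 cisplatin arrays far above water, and Mdm2 keeps them close together. Replicate 1 is lowest for Umod (-1.57) and Slc22a2 (-0.45) and highest for Hmox1 (5.30), and it is nearest to water for Lck (-3.81).

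Serpina3n, an inhibitor of serine proteases made in inflammation, also rose least on replicate 1. It lay at -4.59, -2.10 and -1.79 with water and at 1.63, 5.01 and 5.97 with cisplatin, with wide spread in both groups and no overlap. The rise was 7.03 ± 1.24, 8.32 without replicate 1, and 6.15 without cisplatin replicate 3 or water replicate 1. Fam111a, a protease that supports DNA replication, lay at -4.90, -5.60 and 0.35 with water and at -3.35, 0.30 and 1.85 with cisplatin; the groups overlapped and the change was not called. Adtrp, which breaks down fatty acid esters of hydroxy acids, lay at 4.10, 4.20 and 3.21 with water and at -3.20, 2.88 and 3.28 with cisplatin. Only replicate 1 was low among these 6 arrays, and its change of -2.85 ± 1.76 was not called (adjusted p = 0.187). That is the probe that stood for Adtrp; its other probes changed by -1.16 ± 0.21 and -1.25 ± 0.21.

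Ribosomal protein genes rose slightly, and most on replicate 1. Of 26 measured, 22 rose and 0 fell, with a median of 0.48 and medians of 0.64, 0.42 and 0.38 on the 3 arrays. Replicate 1 was the most changed array for all 22. Rps19, a small-subunit protein, rose by 1.07 ± 0.09. Of 24 proteasome genes 4 rose and 2 fell, which is below the 26.1% higher and 32.6% lower among all features. Of these 6 calls, 3 ended without replicate 1, 4 without replicate 2 and 3 without replicate 3.

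Red cell transcripts fell, and replicate 2 led here. Of 12 erythroid genes 10 fell and 2 rose, with a median of -3.96 and medians of -4.06, -4.63 and -3.18 on the 3 arrays. Without replicate 2, 10 fell and 2 rose with a median of -3.62. Hba-a1, an alpha globin, lay at 8.80, 8.68 and 8.52 with water and at 4.61, 4.11 and 5.50 with cisplatin, and the groups lay far apart. The change was -3.93 ± 0.35, -3.86 without replicate 1 and -3.61 without replicate 2. Alas2, the first enzyme of haem synthesis in red cell precursors, changed by -4.53 ± 0.40. The globin genes are near-identical copies, so that their probes may share transcripts and single members are uncertain.

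The difference in effect between the 2 experiments was called for 382 features (1.19%). Of these, 52 had a higher effect by injection (0.161%) and 330 a lower one (1.02%). At an unadjusted p under 0.05 (limma) there were 6239 (19.4%), so that a feature not called may still differ. Of the 12 erythroid genes 6 were among the 52; their median change was -6.89 by gavage, so that they fell less by injection. For Hba-a1 the difference was 2.64. Gclm, which fell by 3.36 after injection, changed by -0.52 after gavage, and the difference was not called (adjusted p = 0.06, limma). The number of such calls depended on single arrays: without intravenous cisplatin replicate 1 it was 899 higher and 1254 lower, and without replicate 2 it was 0 in both directions, with 5418 features at an unadjusted p under 0.05 (limma).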

How the data were processed

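Total RNA of renal cortex was measured on 1-colour Agilent arrays, 1 per sample, and 6 of 12 arrays carry the comparison. Spots were read by the authors in version 10.7 of Agilent's extraction software according to the submitters' processing notes, and in 10.7.1.1 according to the headers. Per the file headers, 2 kinds of intensity are deposited: a processed one, with background removed within the array but no scaling across arrays, and unprocessed medians for spot and background. A deposited value table holds a linear ratio, which matched the processed intensity of each probe over the 75th percentile of its array, and was used as an alternative.

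For this comparison log2 of the processed intensity was taken minus the 75th percentile of each array, without 1439 control spots and 82 spots marked uneven. Probes were named through their RefSeq accessions in a GRCr8 gene table, which was used for names only: 28206 of 61537 matched 1 symbol, 33331 none and 0 several. The brightest probe over all arrays stood for a gene. Probes were compared only for genes on the lists or picked out singly, not for all 9036 genes with several probes. Of 497 such genes with 2 or more probes that could be compared, 52 had probes that differed by over 1 on the log2 scale. In 3 of them probes lay past 1 in both directions. Features well above background on all 3 arrays of a group were tested, 32215 of 45433. The 4 group means were fitted to 12 arrays (limma 3.58.1, R 4.3.3). The test was two-sided on 8 residual degrees of freedom with a prior of 2.09, with Benjamini-Hochberg adjustment and a threshold of 0.05. For a gene below that mark throughout the dimmer group, the fold is a lower bound, from the brighter mean against a dimmer mean in which each array enters at its detection limit (its faintest probe well above background) unless the probe itself was brighter. Scripts were tested on simulated data. Precision is limited by there being 3 arrays a group.

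The members, gene lists, tests and settings were chosen with earlier results of these data known. The genes named are the 15 largest rises and falls with all 6 arrays above background and no overlap of the groups, the 8 largest bounds each way, the 10 each way with the largest smallest change, up to 4 members of each list by p, 12 fixed genes, the genes with the largest gap of one cisplatin array from the other two (8 each way for replicate 1, 5 for the others), and the 8 largest each way of the difference of effects. List members named beyond that, those whose call ended without an array, and the spermatid list were chosen after their values were seen. Promoters were read from a RefSeq table of GRCr8 as the 250 bases before the start, with 27457 genes. Replicate numbers were checked for pairing through the correlation of deviations from the group means, which was -0.0293, -0.000981 and -0.111 for numbers 1 to 3, so that the samples share only a number. Some genes that the rule takes are not reported here.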

Additional observations from a re-analysis of the deposited data

Results flagged for a closer look

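Single genes stood out where the intravenous effect differed from the gavage effect (limma, difference of the 2 effects, adjusted p of 0.041 to 0.049). The route, dose and experiment changed together, and the 2 effects have separate water controls. A positive difference means a higher effect by injection.

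Globin transcripts fell less by injection than by gavage. Among alpha globins the difference was 2.64 (Hba-a1) and 4.42 (Hba-a3), and among beta-type globins it was 4.47 (Hbb), 4.58 (Hbb-b1), 4.12 (Hbb-bs) and 4.59 (Hbe2). Their changes were -4.43 to -3.93 by injection and -8.95 to -6.57 by gavage. These genes are near-identical copies and single members are uncertain.

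The enzyme gene Cryl1 differed by 1.76, the potassium channel partner Kcnip4 by 1.59, and Etfa, which carries electrons from fatty acid oxidation, by 0.49. Lower effects by injection were seen for Hsfy2 (-2.05), Cdh23 (-1.43), Pcsk4 (-1.58), Cldn23 (-1.19, whose 2 probes moved in opposite directions after injection) and the olfactory receptor genes Olr951 (-2.70), Or7d11c (-1.84), Or6z5 (-1.64) and Or5h27 (-1.47).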

How the results depend on the processing

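Spike-in scaling gave 17036 features higher and 3020 lower by injection; all other settings kept both counts within 1.5 times the main ones. With the replicate number as a block, 7667 were higher and 9605 lower, and the numbers do not pair the samples. The block turned the direction of none of the 281 named genes (limma) and ended the call of 7. The difference between experiments was unstable, and the causes were not tested. Leaving out 1 array gave 0 to 899 features higher and 0 to 1930 lower (479 and 1930 without gavage cisplatin replicate 1, 899 and 1254 without intravenous cisplatin replicate 1, 1 and 1 without gavage water replicate 1, 0 and 0 otherwise, with 4685 to 5799 at an unadjusted limma p under 0.05 in those). It was 0 and 0 in limma with the replicate block, spike-in scaling, median centring and no filter (5173, 5093, 6175 and 6476 at an unadjusted p under 0.05). Quantile scaling gave 37 higher and 192 lower, normexp 158 and 402, and the stricter filter 104 and 494. Array weights gave 685 higher and 1579 lower, slide as a random block 96 and 495, and a trended prior 106 and 460. The response of replicate 1 was 1.29 on features chosen in the gavage arrays. Median centring and the mean of probes, alternatives added after seeing the data, gave 1.12 and 1.12. Signs turned for Cdkn1a (3.59) and Cldn23 (0.83) with the mean of probes, and with spike-in scaling for Ehd3 (0.10), Podxl (0.0099), Psmd1 (0.32), Tie1 (0.18) and Tpsab1 (0.065). List medians turned with spike-in scaling for intercalated cells (0.11), podocytes (0.28), endothelium (0.38), mast cells (0.30), inner medulla (0.12), skeletal muscle (0.28), metal and platinum handling (0.19), glycolysis (0.41) and the EGF receptor family (0.032). They also turned for mast cells (-0.46 to 0.026 over the fits that left out 1 array, with 0.026 without intravenous water replicate 3, 0.24 with the mean of probes), glycolysis (0.12) and the EGF receptor family (0.10) with the mean of probes, and, with the stricter filter, adrenal cortex (-0.37) and liver (-0.82).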

Other observations

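A few genes split the animals of a group between a high and a low level. Adtrp lay between 2.33 and 4.20 on 9 of the 12 arrays, and at -3.12 and -3.08 on gavage cisplatin replicates 2 and 3 and -3.20 on intravenous cisplatin replicate 1. The lens crystallin gene Cryga was low on gavage water replicates 1 and 3 (0.15 and 0.22), on intravenous water replicate 1 (-0.10) and on intravenous cisplatin replicate 2 (1.27), and lay between 2.06 and 4.27 on the others. Crygd, a second crystallin gene, was below 0 on these 4 arrays, at -2.33, -2.35, -2.75 and -1.10, and at -0.38 on gavage cisplatin replicate 3, and lay between 0.77 and 1.73 on the rest. Fam111a lay at 0.70 and 0.35 on water replicate 3 of the gavage and intravenous groups, and at -6.10 to -4.90 on the other 4 water arrays. Each value is of the probe that stood for the gene; other probes well above background on all 6 intravenous arrays gave intravenous changes of -1.16 and -1.25 for Adtrp and -0.92 for Crygd. These genes were picked after their values were seen, and no explanation was tested.

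Promoters of the other lists were searched as well. TGANTCA, the AP-1 site, stood in 6.39% of all promoters, in 6 of 18 promoters of matrix proteases and inhibitors (33.3%) and in 4 of 28 of injury markers (14.3%). The tandem p53 site stood in 0.0328% of all promoters and in 0 of 26 of the p53 targets. These are counts of letters in the 250 bases before the start.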
